A study of Mus musculus with 20 samples.

Results

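The genotype difference in the response of ear endothelium to a hapten was measured across 14403 autosomal probe sets of 13711 genes, out of 41345 probe sets on the array. Members were all probe sets with 1 gene symbol that lay above their array's median on at least 4 of the 20 arrays. Probe sets of X and Y genes (457) and 26 with no assigned chromosome were fitted with the rest and then left out. For each probe set the quantity is the log2 change from vehicle to DNFB in NICD1-EC-OE mice minus the same change in control mice, and a positive value means that the change was more positive in NICD1-EC-OE mice. A positive difference can therefore be a smaller fall or a larger rise. For many genes the changes or levels in both genotypes are given beside it. Where only the difference is given, its sign does not tell which of these it was. Values after ± are standard errors (SE) of the fit to all 20 arrays.

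Endothelial cells were sorted from ears by surface CD31 and the absence of CD45 and Ter119. NICD1-EC-OE mice carried an inducible, endothelial transgene for the constitutively active intracellular domain of Notch1, and all mice, controls included, received 5 tamoxifen injections. DNFB (2,4-dinitrofluorobenzene, a contact hapten) was painted on days 0 and 1 for sensitisation then on the ear on day 5, with tissue collected after a further 24 hours. There were 6 control vehicle, 6 control DNFB, 4 NICD1-EC-OE vehicle and 4 NICD1-EC-OE DNFB arrays. The labels name 2 Cre drivers, Pdgfb-CreERT2 in the genotype and CDH5-iCre in the husbandry text, so which promoter drove recombination is not settled. For NICD1-EC-OE vehicle replicate 4 the title says vehicle but the description says DNFB, and the title was followed. On that array Slc7a11 read 2.48 and Fmo2 8.63 (log2), each between other NICD1-EC-OE vehicle arrays. The NICD1-EC-OE DNFB arrays ran from 6.90 to 7.57 for Slc7a11 and from 4.23 to 4.92 for Fmo2. Nothing in the labels says that replicates are separate animals, so p-values measure the spread between these samples, which may be technical.

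Contact hypersensitivity is a T cell response to a hapten bound to skin proteins, in which the vessel wall displays adhesion molecules and chemokines that recruit leukocytes. Notch receptors are cut upon binding Delta-like or Jagged ligands, and the freed intracellular domain joins RBPJ on DNA and switches on genes such as those of the Hes and Hey families. In blood vessels this pathway is known for arterial identity, for restraint of VEGF-driven sprouting and for keeping endothelium quiescent.

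The sorted cells carried endothelial RNA in every group. The median level of 25 pan-endothelial markers ran from 10.09 to 10.27 on the log2 scale in control vehicle, 8.94 to 9.54 in control DNFB, 9.82 to 10.04 in NICD1-EC-OE vehicle and 9.41 to 9.62 in NICD1-EC-OE DNFB arrays. Genotype coincided with sex and with the set of arrays: Xist read 2.27 to 3.16 in control and 8.47 to 9.07 in NICD1-EC-OE arrays, array medians were 3.87 to 3.98 and 3.52 to 3.62, and array minima 0.412 to 0.590 and 1.18 to 1.30. The difference between the DNFB effects therefore cannot be told apart from a difference in response by sex or in scale between the array sets. The DNFB effect on Notch1 itself (probe set 17383052) differed by 0.10 ± 0.14 (adjusted p 0.851). Notch1 medians with vehicle and DNFB were 9.78 and 9.80 in control and 9.78 and 9.77 in NICD1-EC-OE arrays, so its signal was not higher in NICD1-EC-OE arrays. The position of its probes relative to the transgene is not known here.

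Of the 14403 probe sets, 2 passed limma's test of the difference at an adjusted p of 0.05 (0.0139%), Rbp7 with a positive (0.00694%) and Mpp7 with a negative (0.00694%) difference. At an adjusted p of 0.1 there were 21 (0.146%), 16 positive (0.111%) and 5 negative (0.0347%). At an unadjusted p of 0.05 there were 1529 (10.6%), 889 positive (6.17%) and 640 negative (4.44%), and these shares are the background for the counts of gene groups given further on. Over all members the median difference was 0.016, with quartiles of -0.187 and 0.209. The DNFB effect itself was broad in both genotypes: 3448 rose (23.9%) and 3403 fell (23.6%) in control mice, and 2911 rose (20.2%) and 2613 fell (18.1%) in NICD1-EC-OE mice. In the simulated data the test recovered 6% of differences of 0.5, 58% of differences of 1 and 94% of differences of 2 log2 units. Small differences of a single gene were thus mostly out of reach. The simulated data gave 121 calls, and with so many the adjustment of p-values is more lenient than with the 2 calls here. These shares therefore overstate what the test could find in the real data.

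**Figure D1:**
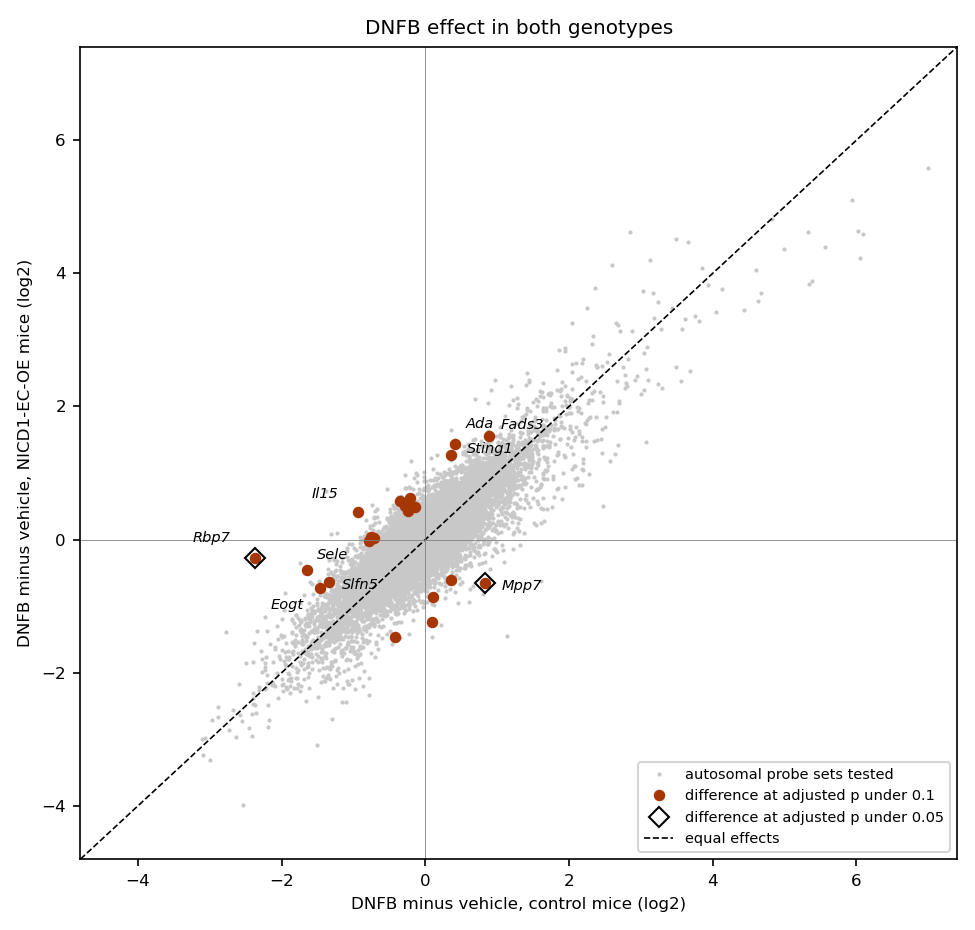
The log2 change from vehicle to DNFB in control mice (horizontal) is set against that in NICD1-EC-OE mice (vertical) for each of the 14403 autosomal probe sets, with the dashed line marking equal changes. The 21 probe sets at an adjusted p under 0.1 for the difference are red, and the 2 under 0.05, Rbp7 above the line and Mpp7 below it, carry a diamond.

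Rbp7 (probe set 17433145, chromosome 4) had the lowest p among positive differences. It encodes a cytoplasmic retinol-binding protein of the fatty acid-binding protein family and is a marker of capillary endothelium. Its level was 8.81, 8.35, 8.19, 8.45, 8.75 and 8.56 in the control vehicle arrays and 5.69, 5.30, 6.73, 6.69, 6.02 and 6.44 in the control DNFB arrays. In NICD1-EC-OE mice it was 8.86, 8.47, 8.47 and 7.87 with vehicle and 8.26, 8.38, 7.98 and 7.93 with DNFB. All 6 control DNFB arrays lay below the other 14, whereas the NICD1-EC-OE groups overlapped. Rbp7 fell by 2.37 ± 0.22 in control mice (SE; adjusted p 2.16e-08), was at -0.28 ± 0.26 in NICD1-EC-OE mice (adjusted p 0.442), and differed by 2.09 ± 0.34 (95% interval 1.38 to 2.81; adjusted p 0.0423).

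Mpp7 (probe set 17352549, chromosome 18) was the only negative call. It encodes a membrane-associated guanylate kinase scaffold of the Crumbs polarity complex at cell junctions. Its level was 6.24, 6.18, 6.24, 6.04, 5.94 and 5.76 in control vehicle and 7.18, 6.82, 6.97, 7.17, 6.38 and 6.82 in control DNFB arrays. It was 6.68, 6.33, 6.45 and 6.77 in NICD1-EC-OE vehicle and 6.09, 5.51, 6.07 and 5.93 in NICD1-EC-OE DNFB arrays. Within each genotype DNFB and vehicle arrays did not overlap, and they lay in opposite order. Mpp7 rose by 0.82 ± 0.14 in control mice (adjusted p 6.22e-05) and fell by 0.66 ± 0.17 in NICD1-EC-OE mice (adjusted p 0.0047), a difference of -1.48 ± 0.22 (95% interval -1.95 to -1.02; adjusted p 0.0274).

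Both calls lay close to the threshold. Leaving out 1 array at a time, Rbp7 ran from 1.91 to 2.24 and passed in 5 of 20 fits, with adjusted p from 0.0208 to 0.156. It did not pass without control vehicle replicates 1, 2, 4, 5 or 6, control DNFB replicates 1 or 5, or any of the 8 NICD1-EC-OE arrays. Mpp7 ran from -1.58 to -1.35 and passed in 11 of 20, with adjusted p from 0.00288 to 0.129. It did not pass without control vehicle replicates 4, 5 or 6, control DNFB replicate 1, NICD1-EC-OE vehicle replicates 1, 3 or 4, or NICD1-EC-OE DNFB replicates 2 or 4. Without NICD1-EC-OE vehicle replicate 4, whose labels conflict, Rbp7 was 1.91 (adjusted p 0.149) and Mpp7 -1.41 (adjusted p 0.129), and no probe set passed limma's test, with 789 positive and 529 negative at an unadjusted p of 0.05. Without control DNFB replicate 6, 28 passed at an adjusted p of 0.05, and 78 positive and 40 negative ones at 0.1.

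The start-site windows of 4 of the genes are shown because the Notch co-activator complex and the endothelial ETS factors act through short sequences near promoters. Each runs from 250 bases before to 50 bases after the gene's annotated start (RefSeq, GRCm38.p6), 5′ to 3′ on the gene's strand. Capitals mark the RBPJ core TGGGAA and the ETS core AGGAAG, on either strand. Rbp7 lies at chr4:149454919-149455218 (minus strand), E-selectin (Sele) at chr1:164047984-164048283 (plus strand), VEGF receptor 2 (Kdr) at chr5:75978406-75978705 (minus strand) and connexin 37 (Gja4) at chr4:127313990-127314289 (minus strand).
Rbp7: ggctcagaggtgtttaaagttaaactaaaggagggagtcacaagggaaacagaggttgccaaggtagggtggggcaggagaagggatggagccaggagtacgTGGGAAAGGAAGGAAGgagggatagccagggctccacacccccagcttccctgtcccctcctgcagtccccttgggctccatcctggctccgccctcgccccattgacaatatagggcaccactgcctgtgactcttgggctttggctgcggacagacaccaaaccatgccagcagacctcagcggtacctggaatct
Sele: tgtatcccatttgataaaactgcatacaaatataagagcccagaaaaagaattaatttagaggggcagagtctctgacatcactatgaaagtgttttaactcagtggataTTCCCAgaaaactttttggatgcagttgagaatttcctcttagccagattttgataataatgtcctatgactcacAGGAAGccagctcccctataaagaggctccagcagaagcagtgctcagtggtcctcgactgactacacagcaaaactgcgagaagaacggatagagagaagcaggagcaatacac
Kdr: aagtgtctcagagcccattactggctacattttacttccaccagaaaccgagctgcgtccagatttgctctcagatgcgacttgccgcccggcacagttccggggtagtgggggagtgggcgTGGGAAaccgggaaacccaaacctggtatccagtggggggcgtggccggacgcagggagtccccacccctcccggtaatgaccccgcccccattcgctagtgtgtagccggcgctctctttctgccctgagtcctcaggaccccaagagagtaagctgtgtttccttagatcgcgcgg
Gja4: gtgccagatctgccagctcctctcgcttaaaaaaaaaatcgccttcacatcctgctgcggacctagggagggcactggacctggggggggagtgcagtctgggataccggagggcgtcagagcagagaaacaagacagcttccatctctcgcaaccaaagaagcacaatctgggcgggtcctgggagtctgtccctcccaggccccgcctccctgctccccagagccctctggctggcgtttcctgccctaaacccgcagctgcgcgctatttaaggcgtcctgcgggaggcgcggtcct
The Rbp7 window held 1 RBPJ core and 2 ETS cores, which overlap each other, the Sele window 1 of each and the Kdr window 1 RBPJ core. The Gja4 window held neither. Windows were found for 12 of the 16 genes with a positive difference at an adjusted p of 0.1, and 4 of the 12 (33.3%) held TGGGAA, beside 2515 of 10674 measured genes with a window (23.6%). For AGGAAG the shares were 33.3% and 33.0%. For NF-kB a single strict pattern was searched, and it was in 0 of the 12 windows and in 1.67% of all. Sites spelled in other ways were not counted, so these windows, that of Sele included, may still hold NF-kB sites. Among genes at an unadjusted p of 0.05, TGGGAA was in 24.2% of 691 windows with a positive and 20.3% of 443 with a negative difference. A match describes the letters of the window and not binding.

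The 16 positive differences at an adjusted p of 0.1 were of several shapes. For 6 of them (Rbp7, Sele, Il15, Kdr, the potassium-chloride cotransporter Slc12a7 and the tetraspanin Tspan9) the level fell in control mice but did not pass in NICD1-EC-OE mice. Slfn5, an interferon-inducible Schlafen gene, and Eogt, a glycosyltransferase that modifies Notch receptors, fell in both genotypes and fell less in NICD1-EC-OE mice. The microtubule-associated Eml1, the mannosyltransferase Alg2 and Ankrd33b fell in control and rose in NICD1-EC-OE mice. For each of these genes the NICD1-EC-OE vehicle arrays lay below all control vehicle arrays, and the genotypes overlapped with DNFB. Alg2 medians with vehicle and DNFB, for example, were 6.19 and 5.96 in control and 5.59 and 6.03 in NICD1-EC-OE mice. Flt1 and the tubulin Tubb2a rose in NICD1-EC-OE mice and did not pass in control mice, while the desaturase Fads3, Sting1 and Ada rose in both, with larger rises in NICD1-EC-OE mice. Differences ran from 0.63 for Flt1 to 2.09 for Rbp7. Of the 5 negative ones, Mpp7 and the anthrax toxin receptor Antxr1 (-0.97 ± 0.19) rose in control and fell in NICD1-EC-OE mice. The calcium-sensing receptor Casr (-0.98 ± 0.20) did not pass in control mice, where it averaged 3.82 and 3.93 and so lay near the array medians, and fell from 5.06 to 4.19 in NICD1-EC-OE mice. The other 2 negative ones are a predicted gene and a transcript known by an accession, which are counted but not named.

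The larger set at an unadjusted p of 0.05 was mixed in the same way. Of the 889 positive differences, 297 fell in control mice without passing in NICD1-EC-OE mice, 192 rose in NICD1-EC-OE mice without passing in control mice, 140 rose in both, 135 fell in both, 9 fell in control and rose in NICD1-EC-OE mice, and 116 passed in neither. Of the 640 negative differences, 205 rose in control mice without passing in NICD1-EC-OE mice, 135 fell in NICD1-EC-OE mice without passing in control mice, 104 fell in both, 82 rose in both, 7 rose in control and fell in NICD1-EC-OE mice, and 107 passed in neither. Passing in one genotype and not in the other is a description of each effect. The test of the difference is the one that chose these probe sets.

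E-selectin (Sele, probe set 17218820), which tethers rolling leukocytes to inflamed venules, had levels of 11.60, 11.62, 11.91, 11.98, 12.19 and 11.97 in control vehicle and 9.64, 10.38, 10.53, 10.14, 10.17 and 10.53 in control DNFB arrays. In NICD1-EC-OE mice the levels were 11.23, 11.89, 11.37 and 11.70 with vehicle and 11.15, 11.29, 11.06 and 10.88 with DNFB. The control groups stood more than 1 log2 unit apart, and the NICD1-EC-OE groups overlapped by a narrow margin. Sele fell by 1.65 ± 0.15 in control mice and was at -0.45 ± 0.19 in NICD1-EC-OE mice (adjusted p 0.0638), a difference of 1.20 ± 0.24 (adjusted p 0.0839).

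Interleukin 15 (Il15, probe set 17510856), a cytokine that sustains NK and memory CD8 T cells, was at 5.91, 6.34, 6.63, 6.14, 6.14 and 6.13 in control vehicle and 5.29, 5.43, 4.46, 5.19, 5.54 and 5.73 in control DNFB arrays. It was at 5.81, 5.96, 5.88 and 5.58 in NICD1-EC-OE vehicle and 6.23, 6.44, 6.19 and 6.03 in NICD1-EC-OE DNFB arrays. DNFB arrays lay below vehicle arrays in control mice and above them in NICD1-EC-OE mice, with no overlap in either. The fall of 0.94 ± 0.17 in control mice passed (adjusted p 8.91e-05), the change of 0.41 ± 0.20 in NICD1-EC-OE mice did not (adjusted p 0.124), and the difference was 1.35 ± 0.26 (adjusted p 0.0839).

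**Figure D2:**
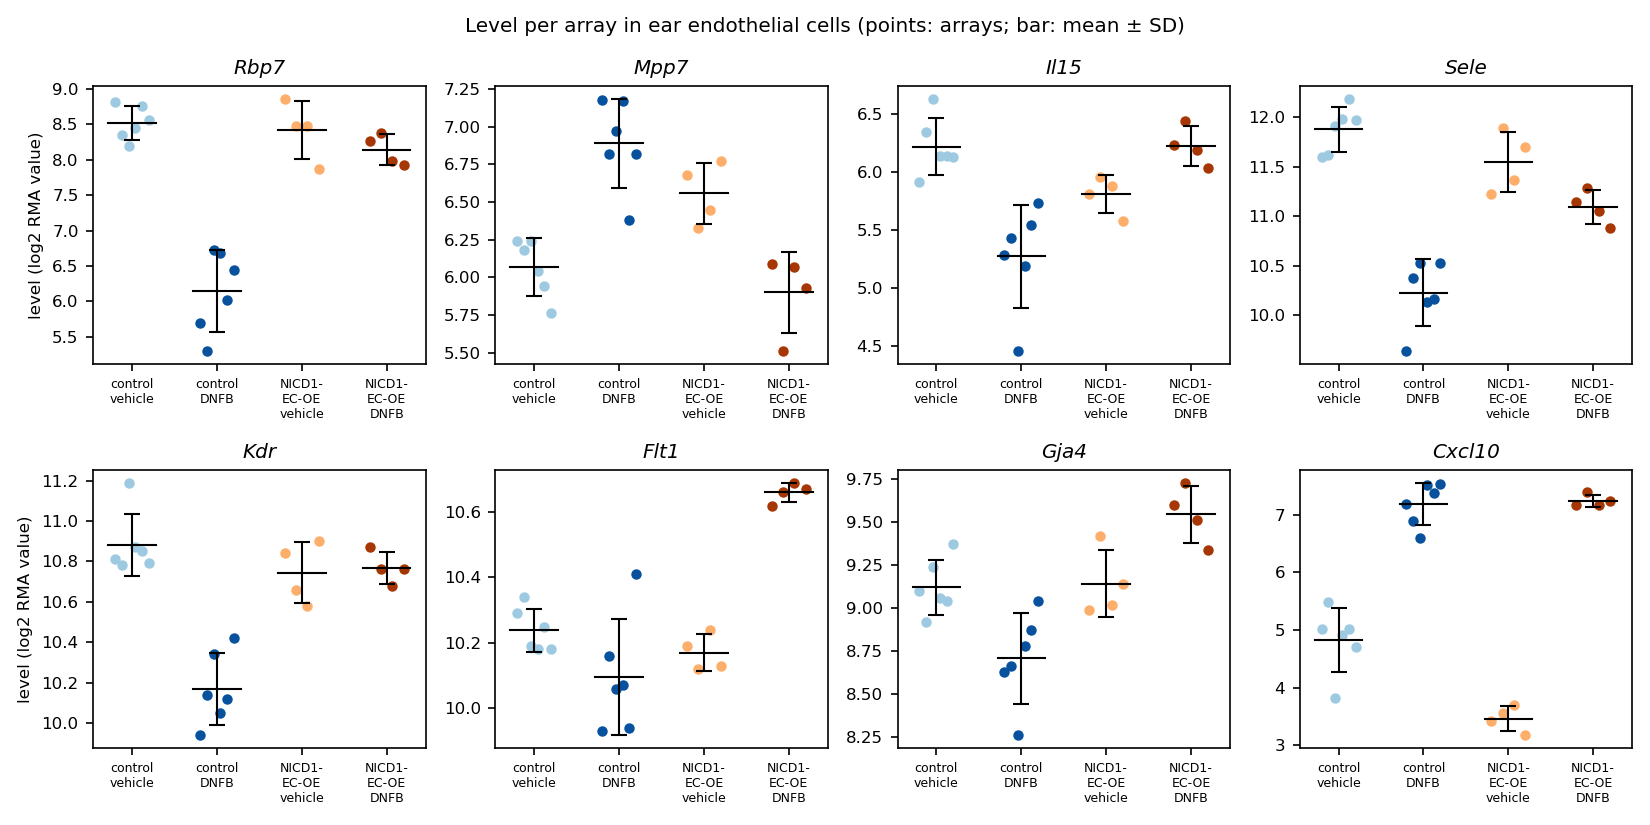
The log2 level of 8 genes is plotted for each array (points) with the group mean and SD (bars), and each panel has its own vertical range. Rbp7 and Kdr stayed near their vehicle level in NICD1-EC-OE DNFB arrays while all 6 control DNFB arrays lay lower, Flt1 was highest in NICD1-EC-OE DNFB arrays, and Cxcl10 reached a like level in both DNFB groups from a lower NICD1-EC-OE vehicle level.

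Pan-endothelial markers, the genes that define endothelium whatever its bed, had the largest share of positive differences among the endothelial gene groups. Of 25 measured members of 25 listed, 13 had a positive difference at an unadjusted p of 0.05 and 0 a negative one, beside 6.17% and 4.44% of all members, and the median difference was 0.430 against 0.016. In control mice 21 fell and 1 rose with DNFB (median change -0.714), and in NICD1-EC-OE mice 13 fell and 3 rose (median -0.317). Over fits leaving out 1 array the positive count ran from 10 to 14 and the median from 0.338 to 0.470. Only Flt1 and Kdr reached an adjusted p of 0.1.

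The VEGF receptors were among the leading markers. Kdr (probe set 17448924), the main signalling receptor for VEGF-A, was at 10.81, 10.78, 11.19, 10.87, 10.85 and 10.79 in control vehicle and 9.94, 10.14, 10.34, 10.05, 10.12 and 10.42 in control DNFB arrays. In NICD1-EC-OE mice it was at 10.84, 10.66, 10.58 and 10.90 with vehicle and 10.87, 10.76, 10.68 and 10.76 with DNFB. All control DNFB arrays lay below all others, and the NICD1-EC-OE DNFB arrays lay inside the range of their vehicle arrays. Kdr fell by 0.71 ± 0.10 in control mice, was at 0.02 ± 0.12 in NICD1-EC-OE mice, and differed by 0.74 ± 0.16 (adjusted p 0.0899).

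Flt1 (probe set 17455346), which encodes VEGF receptor 1 and its soluble decoy form, was at 10.29, 10.34, 10.19, 10.18, 10.25 and 10.18 in control vehicle and 9.93, 10.16, 10.06, 10.07, 9.94 and 10.41 in control DNFB arrays. It was at 10.19, 10.12, 10.24 and 10.13 in NICD1-EC-OE vehicle and 10.62, 10.66, 10.69 and 10.67 in NICD1-EC-OE DNFB arrays. The NICD1-EC-OE DNFB arrays were above all 16 others, and the control groups overlapped. Flt1 rose by 0.49 ± 0.10 in NICD1-EC-OE mice (adjusted p 0.000547), was at -0.14 ± 0.08 in control mice (adjusted p 0.164), and differed by 0.63 ± 0.13 (adjusted p 0.0839).

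Of 14 measured VEGF and angiopoietin genes of 16 listed, 5 had a positive and 0 a negative difference at an unadjusted p of 0.05 (median 0.274), and 5 of the 14 are also pan-endothelial markers. Vegfc, the growth factor of lymphatic and arterial endothelium, averaged 6.80 and 6.53 (vehicle, DNFB) in control and 7.13 and 7.90 in NICD1-EC-OE mice, and differed by 1.04 ± 0.27 (adjusted p 0.169). The VEGF and semaphorin co-receptor Nrp1 fell in both genotypes, by 1.78 ± 0.10 in control and by 1.18 ± 0.12 in NICD1-EC-OE mice (difference 0.59 ± 0.16, adjusted p 0.172).

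Other leading pan-endothelial markers followed the same order of effects without reaching an adjusted p of 0.1. Cd34, a sialomucin of the luminal surface, fell by 0.89 ± 0.09 in control mice and was at -0.28 ± 0.11 in NICD1-EC-OE mice (difference 0.61 ± 0.15, adjusted p 0.118). Endoglin (Eng), a co-receptor for BMP9, was at 0.09 ± 0.08 in control mice and rose by 0.55 ± 0.09 in NICD1-EC-OE mice (difference 0.47 ± 0.12, adjusted p 0.165). Endomucin (Emcn), a sialomucin of capillaries and veins, differed by 0.60 ± 0.16. Among transcription factors of endothelial identity the ETS factor Fli1 differed by 0.66 ± 0.19, Sox7 by 0.55 ± 0.15 and Sox18 by 0.74 ± 0.25. Of 31 endothelial transcription factors, 4 had a positive and 3 a negative difference at an unadjusted p of 0.05 (median 0.130), with the glucocorticoid-induced factor Klf9 at -0.48 ± 0.17.

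Arterial genes had a median difference of 0.428. Of 29 measured of 30 listed, 13 were positive and 0 negative at an unadjusted p of 0.05, and 13 to 15 were positive when 1 array was left out. In control mice 20 fell and 3 rose with DNFB, and in NICD1-EC-OE mice 13 fell and 4 rose. No member reached an adjusted p of 0.1. The list shares 8 genes with the lists of Notch receptors and Notch targets as a pair, so the counts for those lists are not separate evidence.

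The gap junction gene Gja4 (connexin 37, probe set 17430211), which marks arterial endothelium, was at 9.10, 8.92, 9.24, 9.06, 9.04 and 9.37 in control vehicle and 8.63, 8.66, 8.26, 8.78, 8.87 and 9.04 in control DNFB arrays. It was at 8.99, 9.42, 9.02 and 9.14 in NICD1-EC-OE vehicle and 9.60, 9.73, 9.51 and 9.34 in NICD1-EC-OE DNFB arrays. DNFB arrays were mostly lower in control and mostly higher in NICD1-EC-OE mice, with overlap at 1 edge in each genotype. Gja4 fell by 0.42 ± 0.12 in control mice and rose by 0.40 ± 0.15 in NICD1-EC-OE mice (difference 0.82 ± 0.19, adjusted p 0.109). Its relative Gja5 (connexin 40) was at 0.03 ± 0.17 in control mice and rose by 0.81 ± 0.21 in NICD1-EC-OE mice (difference 0.78 ± 0.27, adjusted p 0.301). The arterial semaphorin Sema3g ran from 7.88 to 8.34 in control vehicle, 5.96 to 7.35 in control DNFB, 8.50 to 8.94 in NICD1-EC-OE vehicle and 8.26 to 8.67 in NICD1-EC-OE DNFB arrays, a difference of 1.04 ± 0.31 (adjusted p 0.228).

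Genes of the Notch pathway moved both ways. Of 20 measured receptors, ligands and processing genes of 22 listed, 3 had a positive and 2 a negative difference at an unadjusted p of 0.05 (median 0.117), and of 25 measured targets and modulators of 26 listed 6 were positive and 3 negative (median 0.190). The ligand Jag2 fell by 1.69 ± 0.15 in control and by 0.84 ± 0.18 in NICD1-EC-OE mice (difference 0.85 ± 0.24, adjusted p 0.181). The tip cell ligand Dll4 fell by 0.59 ± 0.13 in control mice and was at -0.05 ± 0.16 in NICD1-EC-OE mice (difference 0.54 ± 0.20, adjusted p 0.339). The receptor Notch2 ran from 7.49 to 8.04 in control vehicle and 8.33 to 8.86 in control DNFB arrays, but from 7.25 to 7.79 and 7.42 to 7.71 in the NICD1-EC-OE groups. Notch2 thus rose by 0.76 ± 0.12 in control mice, was at 0.02 ± 0.15 in NICD1-EC-OE mice, and differed by -0.74 ± 0.19 (adjusted p 0.16). The ligand Dll1 differed by -0.46 ± 0.21 (adjusted p 0.459) and the endothelial receptor Notch4 by 0.40 ± 0.20 (adjusted p 0.495).

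Among targets, the Hey family repressors had positive differences. Heyl was at 6.10, 6.00, 6.31, 6.68, 6.88 and 6.61 in control vehicle and 5.14, 5.00, 5.74, 4.53, 4.22 and 4.03 in control DNFB arrays, and at 5.82, 5.87, 5.27 and 5.97 and then 5.30, 5.04, 5.21 and 5.35 in NICD1-EC-OE vehicle and DNFB arrays. Its control groups were fully apart and its NICD1-EC-OE groups overlapped (difference 1.14 ± 0.37, adjusted p 0.273). Hey1 fell by 0.93 ± 0.10 in control and by 0.42 ± 0.12 in NICD1-EC-OE mice (difference 0.50 ± 0.16, adjusted p 0.253). The feedback regulator Nrarp differed by 0.48 ± 0.16, the arterial ephrin Efnb2 by 0.52 ± 0.16 and the repressor Snai1 by 0.87 ± 0.25. The Deltex ubiquitin ligases, modulators of Notch receptors, went the other way: Dtx1 fell by 1.13 ± 0.19 in control and by 1.98 ± 0.24 in NICD1-EC-OE mice (difference -0.85 ± 0.31, adjusted p 0.324), and Dtx4 differed by -0.67 ± 0.28 (adjusted p 0.392). Of the pathway's members named here, none passed the test of the difference.

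**Figure D3:**
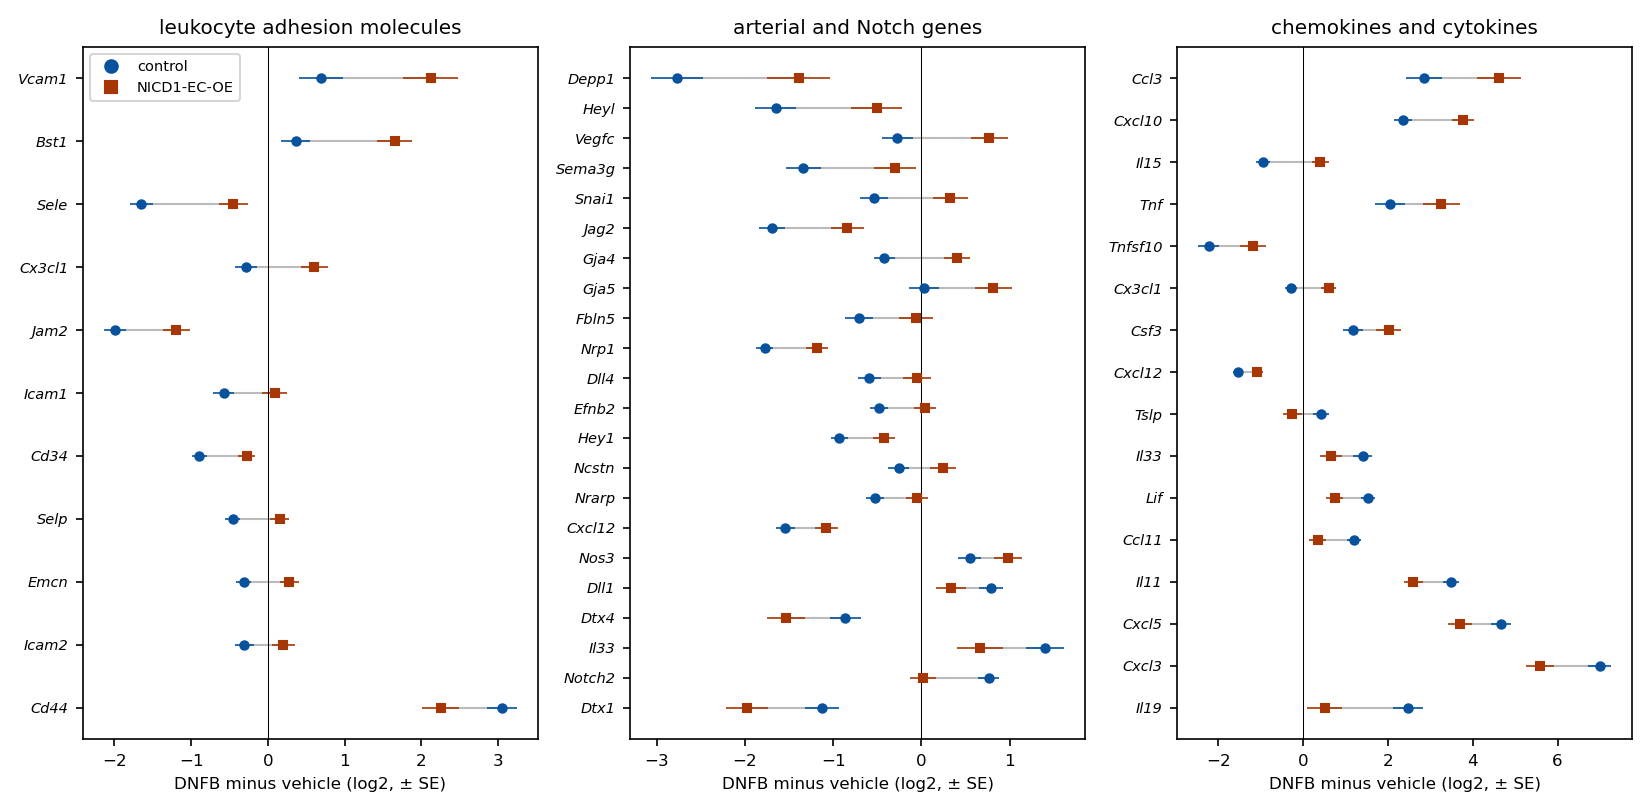
The log2 change from vehicle to DNFB, with its SE, is drawn for control mice (blue circles) and NICD1-EC-OE mice (red squares), for the members of the adhesion, arterial and Notch, and chemokine and cytokine lists at an unadjusted p under 0.05 for the difference. Each row is 1 gene, and squares lie to the right of circles for all but Cd44 among adhesion molecules, while chemokines and cytokines lie on both sides.

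Venous genes and leukocyte adhesion molecules, which share 6 members, also had positive differences. The adhesion list shares 5 members with the pan-endothelial markers too, so its counts are not separate evidence. Of 17 measured venous genes of 20 listed, 8 were positive and 0 negative at an unadjusted p of 0.05 (median 0.453), and of 28 measured adhesion molecules of 33 listed 10 were positive and 1 negative (median 0.280). With DNFB 15 adhesion molecules fell and 4 rose in control mice, and 6 fell and 7 rose in NICD1-EC-OE mice. Leaving out 1 array, 9 to 12 adhesion molecules were positive.

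P-selectin (Selp), the selectin stored in Weibel-Palade bodies, ran from 10.96 to 11.47 in control vehicle, 10.56 to 10.87 in control DNFB, 10.61 to 11.15 in NICD1-EC-OE vehicle and 10.96 to 11.13 in NICD1-EC-OE DNFB arrays (difference 0.61 ± 0.16, adjusted p 0.169). The integrin ligand Icam1 fell by 0.58 ± 0.14 in control mice and was at 0.09 ± 0.17 in NICD1-EC-OE mice (difference 0.66 ± 0.22, adjusted p 0.274), and Icam2 differed by 0.51 ± 0.19. Vcam1, the ligand of VLA-4, was at 5.69, 5.53, 4.71, 5.12, 5.60 and 5.84 in control vehicle and 6.23, 5.99, 4.89, 6.14, 6.11 and 7.25 in control DNFB arrays. It was at 4.65, 5.26, 4.57 and 4.72 in NICD1-EC-OE vehicle and 6.35, 7.33, 7.34 and 6.65 in NICD1-EC-OE DNFB arrays. Vcam1 rose by 2.12 ± 0.35 in NICD1-EC-OE mice, with no overlap, and was at 0.69 ± 0.29 in control mice, where the groups overlapped (difference 1.43 ± 0.46, adjusted p 0.273).

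Bst1, an ectoenzyme that acts in leukocyte passage through endothelium, rose by 1.65 ± 0.23 in NICD1-EC-OE mice and was at 0.36 ± 0.19 in control mice (difference 1.29 ± 0.30, adjusted p 0.109). Fractalkine (Cx3cl1), the membrane-bound chemokine of endothelium, ran from 5.94 to 6.52 in NICD1-EC-OE vehicle and from 6.53 to 6.95 in NICD1-EC-OE DNFB arrays, and rose by 0.60 ± 0.18 there. In control mice it was at -0.29 ± 0.14, and the difference was 0.89 ± 0.23 (adjusted p 0.16). Jam2, a junctional adhesion molecule of endothelium, fell by 2.00 ± 0.14 in control and by 1.19 ± 0.18 in NICD1-EC-OE mice (difference 0.80 ± 0.23). Plvap, the diaphragm protein of fenestrae and caveolae, fell by 0.64 ± 0.11 in control mice and was at 0.12 ± 0.14 in NICD1-EC-OE mice (difference 0.76 ± 0.18, adjusted p 0.109). The hyaluronan receptor Cd44 was the adhesion molecule with a negative difference: it rose by 3.05 ± 0.20 in control and by 2.25 ± 0.24 in NICD1-EC-OE mice (difference -0.80 ± 0.31, adjusted p 0.359).

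Capillary, junction and lymphatic genes had medians nearer to 0 or below it. Of 24 capillary genes, 4 were positive and 2 negative at an unadjusted p of 0.05, with a median of 0.105, and Rbp7, Kdr and Plvap were 3 of the positive ones. Capillary genes fell in 20 of 24 cases in control mice and in 18 of 24 in NICD1-EC-OE mice. Of 24 junction genes, 3 were positive and 1 negative (median -0.006). Of 12 measured lymphatic markers of 14 listed, 0 were positive and 2 negative (median -0.266). Among guidance genes 6 of 24 were positive and 1 negative (median 0.169), led by the semaphorin receptor Plxnd1 (0.58 ± 0.14, adjusted p 0.143), and among basement membrane genes 4 of 19 were positive and 0 negative (median 0.143), led by perlecan (Hspg2), which fell by 0.31 ± 0.10 in control and rose by 0.36 ± 0.12 in NICD1-EC-OE mice (difference 0.66 ± 0.15, adjusted p 0.109). Leaving out 1 array moved these values: the lymphatic median ran from -0.437 (without NICD1-EC-OE vehicle replicate 3) to -0.091 (without NICD1-EC-OE vehicle replicate 1). Positive guidance genes numbered 3 without NICD1-EC-OE vehicle replicate 1, and positive basement membrane genes 7 without control DNFB replicate 2 or replicate 6.

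**Figure D4:**
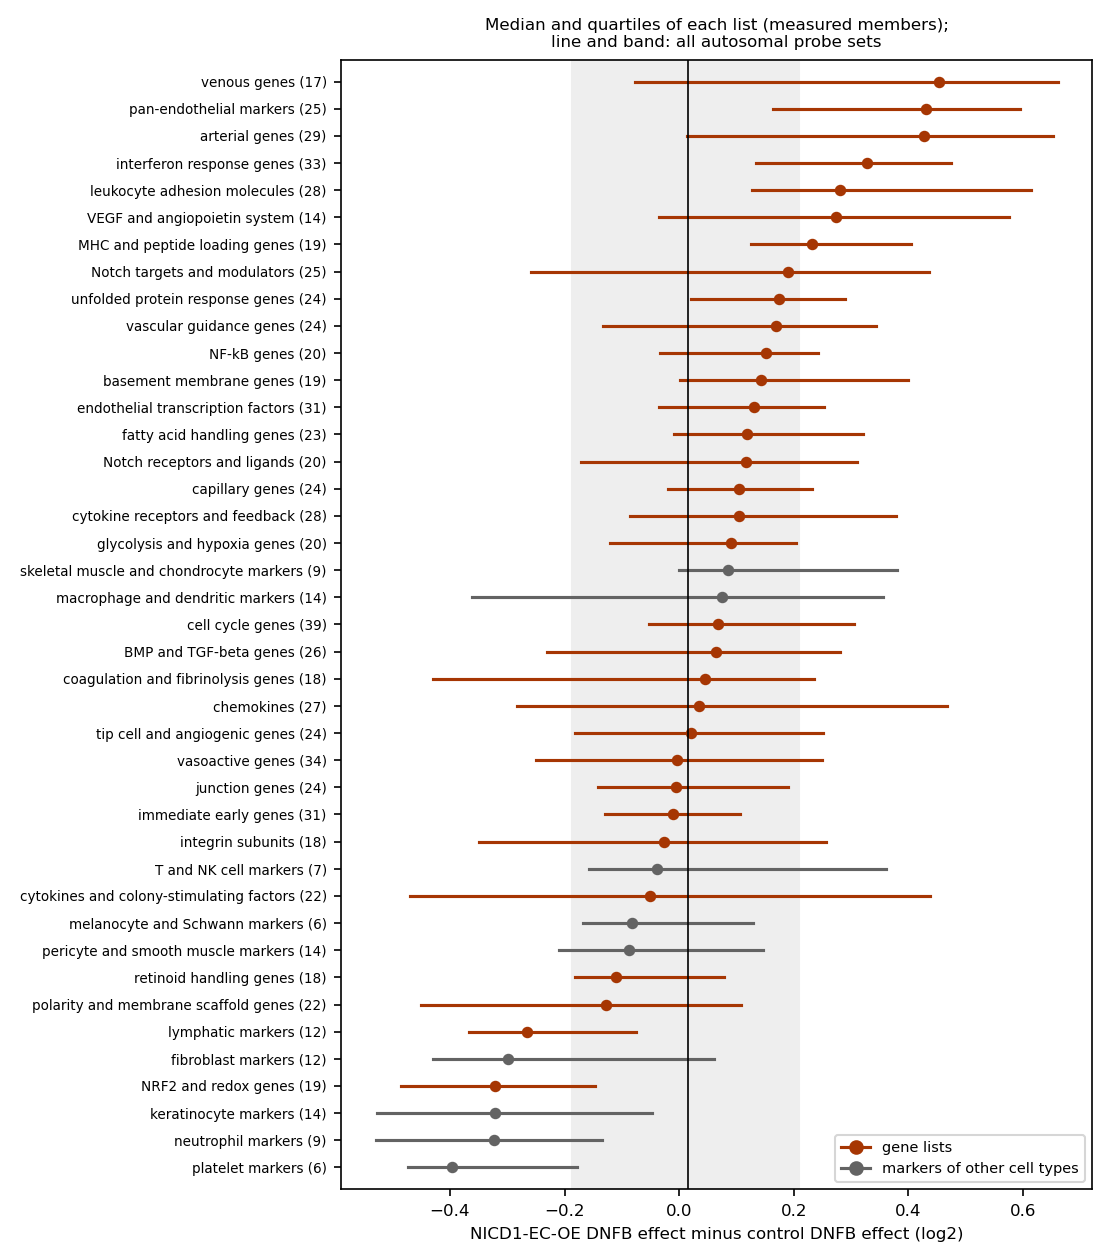
Each row is 1 gene list, with the median (point) and quartiles (bar) of its members' differences in the DNFB effect (NICD1-EC-OE minus control, log2) and the number measured in parentheses, and the line and band mark the median, 0.016, and quartiles of all 14403 autosomal probe sets. Pan-endothelial, arterial and venous medians lay at 0.430, 0.428 and 0.453, and the NRF2 and redox median at -0.321.

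The polarity and retinoid lists, which hold Mpp7 and Rbp7, had medians below 0, though that of the retinoid list ran from -0.149 to 0.031 when 1 array was left out. Both lists were chosen with earlier results of these data known. Their counts include Mpp7 and Rbp7 and are not separate evidence for those calls. Of 22 measured polarity and scaffold genes of 28 listed, 0 were positive and 4 negative at an unadjusted p of 0.05, Mpp7 among them, and the median was -0.127. Of 18 measured retinoid handling genes of 22 listed, 2 were positive and 1 negative (median -0.111): Rbp7, the retinaldehyde reductase Dhrs3 at 0.67 ± 0.32 (adjusted p 0.464) and the retinol dehydrogenase Rdh11 at -0.46 ± 0.19 (adjusted p 0.394). The retinoid shares were 11.1% positive and 5.56% negative, beside 6.17% and 4.44% of all members. Fatty acid handling genes had 2 positive (8.7%, near the share of all members) and 0 negative of 23, with the mitochondrial carnitine transferase Cpt1a at 0.53 ± 0.16 (adjusted p 0.238).

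Chemokines and cytokines had differences in both directions. Of 27 measured chemokines, 4 were positive and 3 negative, and of 22 cytokines and colony-stimulating factors 4 were positive and 5 negative, at an unadjusted p of 0.05. The T cell attractant Cxcl10 (probe set 17449718) was at 5.02, 5.48, 3.82, 4.91, 5.01 and 4.71 in control vehicle and 7.19, 6.89, 6.60, 7.51, 7.37 and 7.53 in control DNFB arrays. It was at 3.42, 3.56, 3.70 and 3.18 in NICD1-EC-OE vehicle and 7.16, 7.39, 7.16 and 7.24 in NICD1-EC-OE DNFB arrays. Cxcl10 rose by 2.36 ± 0.21 in control and by 3.77 ± 0.26 in NICD1-EC-OE mice (difference 1.42 ± 0.33, adjusted p 0.109). The NICD1-EC-OE DNFB arrays lay inside the range of the control DNFB arrays, and the NICD1-EC-OE vehicle arrays lay below all control vehicle arrays, with a mean of 3.46 beside array medians of 3.52 to 3.62.

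The chemokines and cytokines with negative differences rose in control mice, and rose less or did not pass in NICD1-EC-OE mice. The neutrophil attractant Cxcl3 ran from 1.65 to 2.59 in control vehicle, 8.67 to 9.66 in control DNFB, 1.88 to 4.03 in NICD1-EC-OE vehicle and 8.20 to 9.01 in NICD1-EC-OE DNFB arrays, and differed by -1.42 ± 0.43 (adjusted p 0.238). The eosinophil attractant Ccl11 rose by 1.20 ± 0.17 in control mice and was at 0.34 ± 0.21 in NICD1-EC-OE mice (difference -0.86 ± 0.27, adjusted p 0.264). Interleukin 19 (Il19), an interleukin 10 relative, rose by 2.47 ± 0.34 in control mice, from a mean of 2.80, and was at 0.51 ± 0.42 in NICD1-EC-OE mice (difference -1.97 ± 0.54, adjusted p 0.18). The interleukin 6 family members Il11 and Lif differed by -0.89 ± 0.29 and -0.79 ± 0.25. The vehicle means of Cxcl3, Il19, Il11 and Lif lay under the medians of their arrays in both genotypes, and array minima differed between the sets as given above, so their rises depend on where the scale ends and the part of that in the differences was not tested.

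Of 33 measured interferon response genes of 40 listed, 28 (84.8%) had a difference above 0, beside 52.1% of all members, and the median was 0.328. At an unadjusted p of 0.05 only 3 were positive (9.09%) and 0 negative, near the 6.17% and 4.44% of all members. The positive count ran from 3 to 11 over the other settings. In control mice 7 rose and 3 fell, and in NICD1-EC-OE mice 15 rose and 2 fell. Ifit2, an interferon-induced RNA-binding protein, fell by 0.90 ± 0.18 in control mice and was at -0.04 ± 0.22 in NICD1-EC-OE mice (difference 0.86 ± 0.29, adjusted p 0.292), and the factor Irf8 rose by 1.64 ± 0.15 and by 2.35 ± 0.19 (difference 0.71 ± 0.24). The DNA-sensing adaptor Sting1 (probe set 17353663) ran from 9.49 to 10.01 in control vehicle, 9.98 to 10.43 in control DNFB, 8.52 to 9.15 in NICD1-EC-OE vehicle and 9.95 to 10.30 in NICD1-EC-OE DNFB arrays, with a difference of 0.92 ± 0.19 (adjusted p 0.0839). The NICD1-EC-OE vehicle arrays were below all others and the DNFB groups overlapped. Adenosine deaminase (Ada) also had its lowest level in NICD1-EC-OE vehicle arrays, with means of 5.57 and 5.99 in control and 4.82 and 6.25 in NICD1-EC-OE mice (difference 1.02 ± 0.21, adjusted p 0.0839). The interleukin 4 receptor chain Il4ra rose by 0.56 ± 0.10 in control and by 1.27 ± 0.12 in NICD1-EC-OE mice (difference 0.71 ± 0.15, adjusted p 0.106). Il4ra medians with vehicle and DNFB were 9.82 and 10.40 in control and 9.13 and 10.26 in NICD1-EC-OE mice, so the genotypes overlapped with DNFB and not with vehicle. MHC and peptide loading genes had 1 positive and 0 negative of 19 (median 0.232), and NF-kB genes 2 positive and 0 negative of 20.

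Stress and metabolic genes differed in both directions. Of 24 measured unfolded protein response genes, 6 were positive and 0 negative (median 0.175). The chaperone cofactor Sdf2l1 rose by 0.97 ± 0.23 in control and by 2.40 ± 0.29 in NICD1-EC-OE mice (difference 1.43 ± 0.37, adjusted p 0.161), calreticulin (Calr) differed by 0.61 ± 0.16 and Creld2 by 0.60 ± 0.20. Calr medians with vehicle and DNFB were 9.19 and 9.65 in control and 8.37 and 9.42 in NICD1-EC-OE mice, so the genotypes overlapped with DNFB and not with vehicle. Of 19 measured NRF2 and redox genes of 22 listed, 0 were positive and 4 negative, and the median was -0.321. The cystine transporter Slc7a11 rose by 6.03 ± 0.25 in control and by 4.64 ± 0.30 in NICD1-EC-OE mice (difference -1.38 ± 0.39, adjusted p 0.194), from means of 2.60 and 2.64 that were under the array medians. The glutathione synthesis gene Gclc, which started at 7.56 and 7.32, rose by 1.43 ± 0.16 and by 0.54 ± 0.20 (difference -0.89 ± 0.26, adjusted p 0.205). Among glycolysis and hypoxia genes, hexokinase 2 (Hk2) rose by 1.76 ± 0.21 in control mice and was at 0.49 ± 0.25 in NICD1-EC-OE mice (difference -1.27 ± 0.33, adjusted p 0.16). Its vehicle means were 4.08 in control and 3.52 in NICD1-EC-OE mice, the latter near the array medians of 3.52 to 3.62. The mitophagy receptor Bnip3 differed by -0.69 ± 0.22, while 3 of the 20 were positive, and 0 of them without NICD1-EC-OE vehicle replicate 1.

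Coagulation and vessel tone genes were evenly split, with 4 positive and 4 negative of 18 and 4 and 4 of 34. Thrombomodulin (Thbd), the endothelial anticoagulant receptor, fell by 0.76 ± 0.11 in control mice and was at -0.26 ± 0.13 in NICD1-EC-OE mice (difference 0.50 ± 0.17). Ddah2, which degrades an inhibitor of nitric oxide synthase, differed by 0.79 ± 0.22, and the natriuretic peptide receptor Npr1 by 0.53 ± 0.17. Thbd medians with vehicle and DNFB were 10.45 and 9.69 in control and 9.97 and 9.72 in NICD1-EC-OE mice. Those of Ddah2 were 7.82 and 6.60, then 7.13 and 6.67. For Thbd and Ddah2 the genotypes were thus apart with vehicle and overlapped with DNFB. The cGMP-dependent kinase Prkg1, at 4.68 and 5.29 in control and 5.05 and 4.11 in NICD1-EC-OE mice, differed by -1.55 ± 0.40 (adjusted p 0.16).

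The differences of largest size at an unadjusted p under 0.001 included further genes outside these groups. The pyrimidine nucleotide receptor P2ry6 rose by 2.60 ± 0.25 in control and by 4.13 ± 0.30 in NICD1-EC-OE mice (difference 1.52 ± 0.39, adjusted p 0.16). The flavin monooxygenase Fmo2 fell in both, by 2.53 ± 0.24 and by 3.99 ± 0.29 (difference -1.46 ± 0.37). Samd11 rose by 1.90 ± 0.20 in control mice and was at 0.61 ± 0.25 in NICD1-EC-OE mice (difference -1.29 ± 0.32), from vehicle means of 3.85 and 3.53 that lay near the array medians. The splicing regulator Mbnl2 differed by -1.09 ± 0.28, and Nat8l, which makes N-acetylaspartate, by -1.09 ± 0.24 (adjusted p 0.109).

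Markers of other cell types were read beside these groups, since fewer cells of a type and less RNA per cell cannot be told apart in sorted bulk samples. Keratinocyte markers (14 of 14 on the array above the filter) had a summed linear level of 3250 to 6390 in control vehicle, 4580 to 12900 in control DNFB, 3650 to 5970 in NICD1-EC-OE vehicle and 4560 to 6790 in NICD1-EC-OE DNFB arrays, and a median difference of -0.322. Neutrophil markers (9 of 13) summed to 134 to 157 in control vehicle, 480 to 2060 in control DNFB, 117 to 135 in NICD1-EC-OE vehicle and 575 to 718 in NICD1-EC-OE DNFB arrays (median difference -0.324). Platelet markers (6 of 7) summed to 119 to 284, 375 to 1160, 98.2 to 128 and 271 to 442 in the same order of groups (median difference -0.397). Fibroblast markers (12 of 12) had a median difference of -0.298, macrophage and dendritic markers (14 of 18) of 0.074 and pericyte and smooth muscle markers (14 of 14) of -0.088. When 1 array was left out, the median ran from -0.536 to -0.129 for neutrophil, -0.487 to -0.15 for keratinocyte, -0.429 to -0.126 for fibroblast and -0.499 to -0.282 for platelet markers. The value nearest to 0 came without NICD1-EC-OE vehicle replicate 3 for neutrophil, control DNFB replicate 5 for keratinocyte and NICD1-EC-OE DNFB replicate 3 for fibroblast markers.

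Among the 12 lists of other cell types only the pericyte gene Rgs5 (-0.75 ± 0.24, adjusted p 0.272), 1 macrophage and dendritic marker with a negative and 2 with a positive difference reached an unadjusted p of 0.05. The part of these cells in the endothelial differences was not tested. By group median, control DNFB arrays held the highest keratinocyte, neutrophil and platelet sums (6290, 870 and 885) and NICD1-EC-OE DNFB arrays the next highest (5380, 657 and 375). The arrays of the DNFB groups overlapped in each of these sums. Mast cell markers (3 of 9 above the filter) went the other way, with 424 in control DNFB and 500 in NICD1-EC-OE DNFB arrays (median difference 0.352). Pericyte and smooth muscle sums had medians of 9300 and 5570 in control and 8130 and 4240 in NICD1-EC-OE arrays (vehicle, DNFB), so they were higher with vehicle. Fibroblast sums had medians of 2450 and 3230, then 1940 and 2150. The pan-endothelial level was lowest in control DNFB arrays (9.30, beside 9.52).

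**Figure D5:**
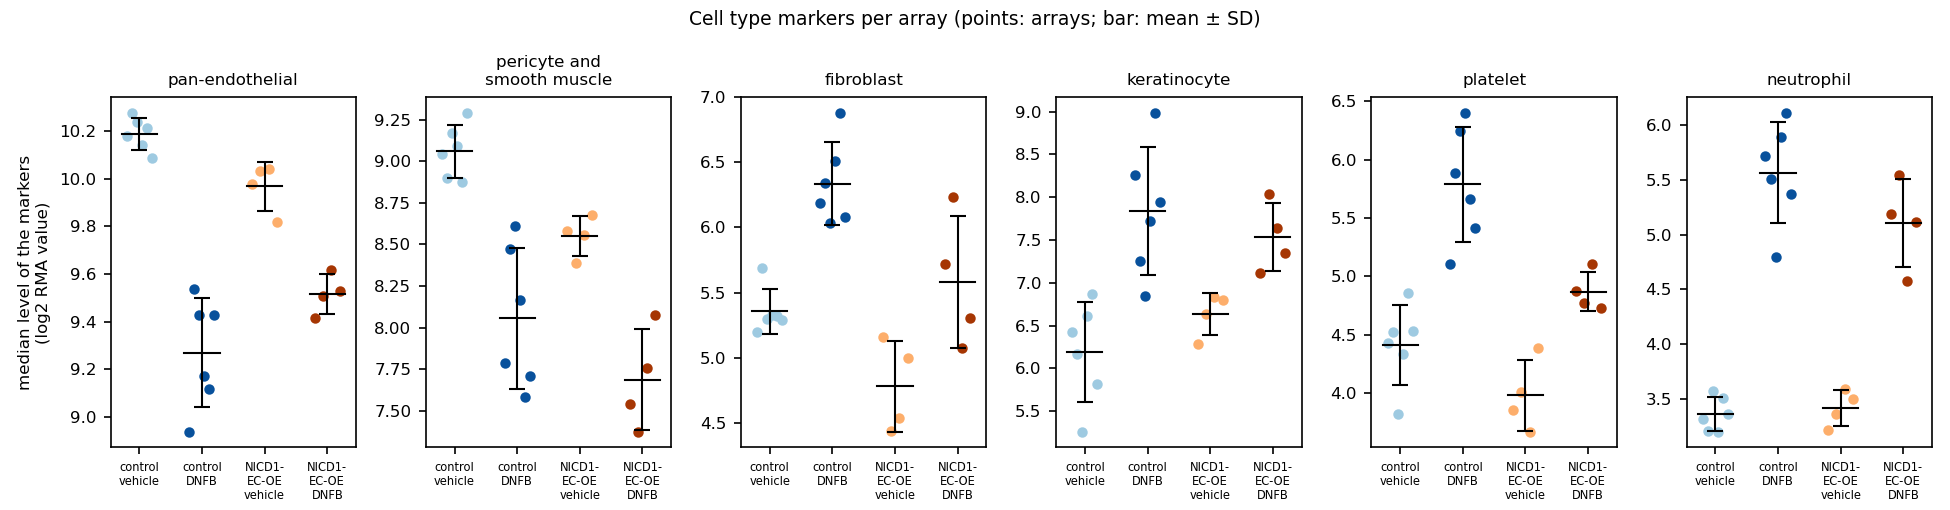
The median log2 level of the members of each list (vertical axis, own range in each panel) is plotted for every array in the 4 groups for 6 marker lists, with the group mean and SD as bars. Pan-endothelial medians were lowest in control DNFB arrays (8.94 to 9.54), and neutrophil medians were higher in all DNFB arrays than in all vehicle arrays.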

How the data were processed

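RNA of sorted ear endothelial cells (1 ng per sample, per the labels) was amplified and hybridised to 20 Affymetrix mouse gene arrays. Per the submitters' processing notes, the authors summarised each probe set with RMA (robust multi-array average) in Affymetrix Expression Console, and the deposited unit is log2. Versions and options are not given in the sources used here. RMA keeps no depth, and the number of arrays limits the precision.

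Of 41345 probe sets, 23521 had 1 gene symbol, 1814 several and 16010 none. The 14886 with 1 symbol that exceeded the median of 4 or more arrays were fitted with limma 3.58.1 (R 4.3.3), 1 mean per group, default moderation and 16 residual degrees of freedom. P-values were adjusted by Benjamini-Hochberg over all 14886, with a threshold of 0.05. Levels at 0.1 and at an unadjusted 0.05 are descriptive.

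The comparison and 44 gene lists (878 symbols, 740 measured) were chosen with earlier results of these data known, so lists are described by counts and medians without a test. The probe set of highest mean stands for a gene in a list. Genes named are those past an adjusted p of 0.05 or 0.1, up to 4 of smallest p per list under an unadjusted 0.01, measured Notch, adhesion and retinoid genes, and the 10 largest differences each way at an unadjusted p under 0.001. Predicted genes are counted only.

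Start-site windows came from RefSeq (GRCm38.p6). The fit was tested on simulated data with 50 changed probe sets per size. Of 121 calls 1.65% were false, a share that belongs to the simulated setting and not to the 2 calls of the real data. Plots used matplotlib 3.10.9 (Python 3.11.15). Alternatives were other filters, scalings, variances, weights, replicate blocks and each array left out. Probe sets without 1 symbol were fitted only in the alternative with all probe sets.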

Additional observations from a re-analysis of the deposited data

Results flagged for a closer look

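Differences between the genotypes in the DNFB effect passed the test for Rbp7 (2.09) and Mpp7 (-1.48), as reported above.

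Among 84 named genes in 4 groups each (336 sets of 4 to 6 values), 13 values lay far from the rest of their group by Dixon's criterion, beside about 1 in 20 sets by chance. Control DNFB replicate 6 was high for Cd34 (10.12, next 9.77), Slc12a7 (8.27, next 7.98) and Sting1 (10.43, next 10.14). Control DNFB replicate 3 was high for Nrp1 (8.33) and replicate 5 low for Npr1 (6.64). Control vehicle replicate 3 was high for Kdr (11.19) and Sox18 (8.47), and replicate 5 for Slc7a11 (3.74, next 2.53). NICD1-EC-OE vehicle replicate 4, whose labels conflict on treatment, was low for Ccl11 (5.30, next 5.71). That value lay below the NICD1-EC-OE DNFB arrays (5.70 to 6.35). NICD1-EC-OE vehicle replicate 2 was low for Notch1 (9.47) and replicate 3 for Dhrs3 (8.89). NICD1-EC-OE DNFB replicate 2 was low for Il19 (3.05) and replicate 4 for Sting1 (9.95).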

How the results depend on the processing

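Across the 11 alternative settings and 20 fits leaving out 1 array, none of the 84 named genes changed the sign of its difference. Many were named for small p-values in these same arrays, so a change of sign was unlikely from the start. The number past a threshold moved a good deal. Passing an adjusted p of 0.05 (2 as reported; then 16 positive and 5 negative at 0.1) were 1 without the filter on low values (1 and 1), 2 with the 60th percentile filter (33 and 16), 0 with all probe sets, named or not (1 and 2), 2 after median centring (14 and 2), 1 after quantile normalization (17 and 3), 1 after cyclic loess (5 and 3), 26 with trended and robust variances (83 and 28) and 16 with array weights (83 and 40). With all probe sets, 1112 positive and 993 negative reached an unadjusted p of 0.05, against 889 and 640. Median centring gave 1094 and 475 there, a larger positive share, with the median of all differences at 0.061. Leaving out 1 array gave 0 to 28 past an adjusted p of 0.05, 0 to 78 positive and 0 to 40 negative at 0.1, and 733 to 1038 and 520 to 769 at an unadjusted 0.05. The highest counts came without control DNFB replicate 6 and the lowest at an adjusted p of 0.1 without NICD1-EC-OE vehicle replicate 4. Rbp7 passed in 6 of the 11 settings (adjusted p 0.0092 to 0.0908) and Mpp7 in 10 (0.0092 to 0.086). Why the counts moved was not tested.

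The labels do not say that replicate numbers pair the samples. Same-numbered arrays of a genotype deviated together with correlations of 0.042 to 0.269, and 13 of 20 arrays correlated best with their own number, a hint of pairing from the data and not from the design, so the fit without the block was kept. With the replicate block, 3 passed as a fixed term (18 and 14 at 0.1), and 19 as a random term (40 and 21). With the fixed block Mpp7 (adjusted p 0.0275) and Nat8l (0.0405) passed, with H2-T24, named after its value was seen, and Rbp7 did not (0.0707). With the random block Mpp7 (0.0107), Rbp7 (0.0235), Sele, Il15 and Flt1 (each 0.0481) were among those that passed. Counts of list members under these settings were added after the data were seen: pan-endothelial positives ran from 11 to 14 of 25, arterial from 13 to 15 of 29 and adhesion from 10 to 11 of 28. Small counts moved more when 1 array was left out: positive interferon response genes numbered 10 without control DNFB replicate 6, and likewise without control vehicle replicate 3 (3 as reported), positive cytokines 2 in 4 such fits (4 as reported), and negative NRF2 and redox genes 2 without NICD1-EC-OE DNFB replicate 3 (4 as reported). Signals near an array's lower end limit what can be read of Cxcl3, Slc7a11, Il19, Cxcl10 and Hk2.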
